A study of Mus musculus with 8 samples.

Results

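The genes that make coenzyme Q were examined in RNA from the soleus, a calf muscle rich in slow and oxidative fibres, of mice carrying a dynamin 2 mutation. The group was formed by gene symbol and holds 10 of the 22880 genes counted: Pdss1, Pdss2, Coq2, Coq3, Coq4, Coq5, Coq6, Coq7, Coq8a and Coq9. All 10 were found in the count files and all 10 passed the filter on low counts, which left 14001 genes for testing.

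Muscles came from 4 control mice (Dnm2 +/+) and 4 Dnm2 +/K562E mice. All 8 were 2-month-old males on a C57BL/6 background. The mutation replaces 1 residue of dynamin 2, a GTPase that cuts vesicles from membranes, and is carried in the animal's own Dnm2 gene, so that every cell that uses the gene can carry the mutant protein beside the normal one. The mutant allele also keeps a LoxP site in an intron, which the controls lack, and the controls were littermates or age-matched mice. Dnm2 itself, whose counts sum both alleles and so do not tell the genotypes apart, was at 66.3 ± 4.74 CPM (read counts per 1e6 counts of the library, normalized by the TMM factors of edgeR; mean ± SD, n = 4) in controls and 73.4 ± 2.43 in Dnm2 +/K562E muscles (log2 fold change 0.15, SE 0.07, adjusted p = 0.0909, edgeR quasi-likelihood test).

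Coenzyme Q, or ubiquinone, is a lipid of the inner mitochondrial membrane that carries electrons from complexes I and II and from other dehydrogenases to complex III. It is built from an aromatic ring, 4-hydroxybenzoate, and a long isoprenoid tail made from products of the mevalonate pathway. The prenyl diphosphate synthase of Pdss1 and Pdss2 makes the tail, Coq2 joins it to the ring, and an assembly of COQ proteins on the matrix side of the membrane then modifies the ring. Muscle with a high oxidative capacity, such as the soleus, depends on this electron carrier, and inherited defects of these genes cause coenzyme Q deficiency.

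Promoter sequence is shown for the 3 genes in which a short motif of a factor known from mitochondrial or sterol gene control was found. The windows are the 250 bases before a RefSeq start site (GRCm38.p6), printed 5′ to 3′ on the strand of the gene, with the matched letters in capitals. In Coq8a they match the NRF1 motif GCGCNTGCG on the opposite strand, in Pdss1 the half-site AAGGTCA of the oestrogen-related receptors, and in Coq4 the sterol regulatory element TCACNCCAC.
Coq8a, chr1:180196021-180196270, minus strand: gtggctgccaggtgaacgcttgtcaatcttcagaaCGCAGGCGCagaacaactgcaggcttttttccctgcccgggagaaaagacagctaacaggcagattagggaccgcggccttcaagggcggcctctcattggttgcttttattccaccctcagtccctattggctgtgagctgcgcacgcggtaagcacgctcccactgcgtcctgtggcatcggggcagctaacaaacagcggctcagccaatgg
Pdss1, chr2:22895272-22895521, plus strand: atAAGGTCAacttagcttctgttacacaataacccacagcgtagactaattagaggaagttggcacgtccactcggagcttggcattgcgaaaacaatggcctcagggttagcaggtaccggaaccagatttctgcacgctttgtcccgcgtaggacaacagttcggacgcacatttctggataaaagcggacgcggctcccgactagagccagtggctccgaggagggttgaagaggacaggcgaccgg
Coq4, chr2:29787243-29787492, plus strand: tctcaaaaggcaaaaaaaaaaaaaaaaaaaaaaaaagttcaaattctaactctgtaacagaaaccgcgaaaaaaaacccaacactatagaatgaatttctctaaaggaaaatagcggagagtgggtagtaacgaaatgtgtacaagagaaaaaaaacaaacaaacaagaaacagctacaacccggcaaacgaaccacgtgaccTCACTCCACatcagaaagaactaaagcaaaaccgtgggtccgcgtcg
The match lay 215 to 207 bases before the start in Coq8a, 248 to 242 bases before it in Pdss1 and 47 to 39 bases before it in Coq4. Both strands of 11 windows belonging to 9 of the genes (all but Coq5) were searched, Coq3 and Coq8a having 2 windows each. Each of these motifs occurred in 1 of the 11 windows, against 5.19% of all 32851 RefSeq promoters for the NRF1 motif, 4.08% for the receptor half-site and 1.05% for the sterol element. The ETS motif CCGGAAGT and the YY1 motif AAGATGGC, present in 2.88% and 1.56% of all promoters, had no match in the 11 windows. The windows held a median of 15 CG dinucleotides, against 6 over all promoters, at a similar GC content (medians of 53.6% and 52.4%). A match describes letters in a window and not a bound site.

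The comparison between genotypes asks which parts of the synthesis route were lower or higher in the mutant muscle. All 10 genes were lower in Dnm2 +/K562E muscles at an adjusted p under 0.05, by log2 fold changes from -0.36 for Coq2 to -0.85 for Coq9, but when the counts were scaled to 8 muscle marker genes in place of the TMM factors, 7 of them turned to values above 0. Over all tested genes 21.7% were lower and 22.2% higher by this call, and none of the 10 was higher. In each of the 10 genes every Dnm2 +/K562E mouse lay below every control, as in 20.5% of all genes, while 20.6% of all genes showed the opposite separation and none of the 10 did. The median log2 fold change of the group was -0.50, against 0.01 over all tested genes. With a log2 fold change of at least 0.58 asked for as well, 3 genes were lower (Coq9, Pdss1 and Coq7) and none was higher, against 7.85% and 12.9% of all genes. Coq5, at -0.57, lay just outside that limit.

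**Figure D1:**
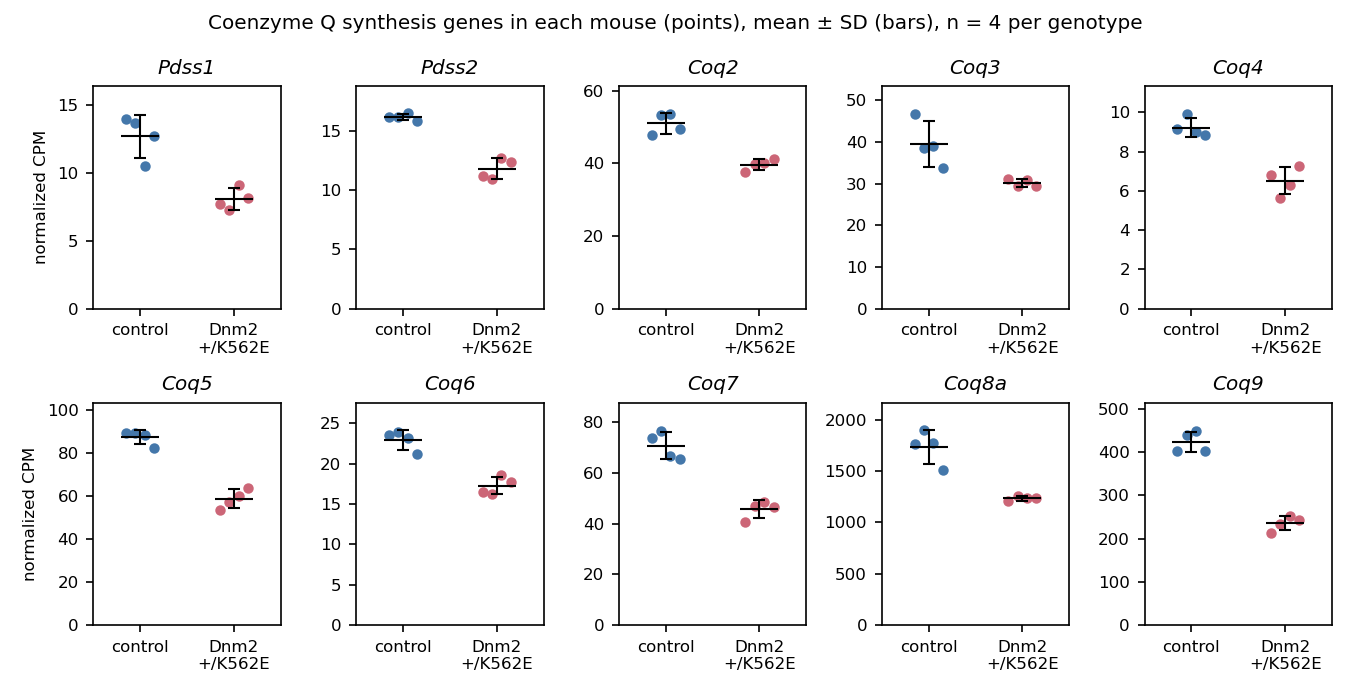
Normalized CPM of the 10 coenzyme Q synthesis genes, each on its own linear axis from 0, in 4 control and 4 Dnm2 +/K562E mice (points), with mean ± SD (bars). In every panel all 4 Dnm2 +/K562E points lie below all 4 control points on this TMM scale; scaled to muscle marker genes, 7 of the 10 genes turn upward.

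These values are relative to the rest of the RNA, and the reference was varied. Dividing by library size alone left all 10 genes lower in mean, with 9 still called and a median of -0.29. With it 10.7% of all genes were called lower, and the median of all genes moved to 0.22. The 8 muscle marker genes (Acta1, Ckm, Mb, Myh7, Myh2, Tnnt1, Tnnc1 and Myl2), which encode contractile and cytoplasmic proteins of the muscle fibre, were present in every muscle but were themselves lower, 7 of 8 by the test and with a median log2 fold change of -0.57. Their summed level was 63895 to 71705 CPM in controls and 43228 to 48400 CPM in Dnm2 +/K562E muscles. Scaled to these genes, a choice made after the data were seen, the group ran from -0.27 for Coq9 to 0.22 for Coq2 with a median of 0.08, while the median of all genes moved to 0.59. Relative to the median of all genes the group's median was -0.51 with TMM factors, -0.51 with library size alone and -0.50 with the muscle markers. Each scaling applies a common factor to all genes of a mouse, so this distance had to stay nearly the same. It therefore does not tell which scale is right. On the muscle scale Coq9 alone of the 10 remained lower by the test (adjusted p = 0.0046, edgeR), Coq2 passed it as higher (adjusted p = 0.0312), and the other 8 passed it in neither direction. Of all 14001 genes, 408 (2.91%) were lower and 10123 higher by the test on that scale, the background for its counts below.

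**Figure D2:**
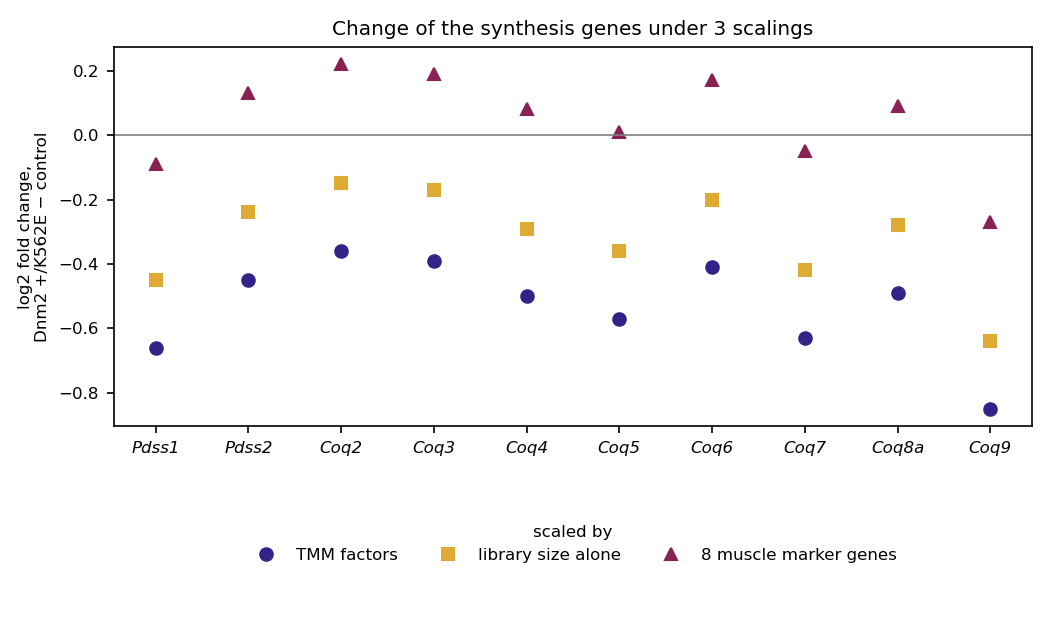
Log2 fold change (Dnm2 +/K562E against control, vertical axis) of each synthesis gene after scaling by TMM factors (circles), library size alone (squares) or 8 muscle marker genes (triangles). A common factor per mouse moves all genes nearly alike, so the order of the genes is nearly kept. The set moves from a median of -0.50 to -0.29 and 0.08, and with muscle markers 7 genes lie above 0.

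The RNA of other cell types moved in the same mice. All 7 macrophage markers were higher, with sums of 72.8 to 135 CPM in controls and 179 to 296 CPM in Dnm2 +/K562E muscles, and 6 of 7 fibroblast markers were higher, with sums of 2464 to 3774 and 5311 to 6948 CPM. All 5 endothelial markers were lower (862 to 900 against 616 to 705 CPM), as were 5 of 7 markers of fast fibres (28340 to 31141 against 17210 to 20671 CPM). No adipocyte marker passed the test in edgeR or DESeq2, 0 of 5 also at an unadjusted p under 0.05 (88.1 to 471 against 149 to 264 CPM), and of the 5 Schwann cell markers Mbp was lower (sums of 242 to 279 against 236 to 285 CPM). No gene of these lists was at 0 in any mouse, and the part of these shifts in the result for the synthesis genes was not tested. In RNA from whole muscle, fewer cells of a type and less RNA per cell cannot be told apart.

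The genes of tail synthesis were lower on the TMM scale. Pdss1 (chr2:22895522-22940266, plus strand, GRCm38), the catalytic subunit that lengthens the isoprenoid chain, was at 14, 13.7, 10.5 and 12.7 CPM in controls 1 to 4 and at 7.71, 7.27, 9.14 and 8.13 CPM in Dnm2 +/K562E mice 1 to 4. Control 3 was the lowest control and Dnm2 +/K562E mouse 3 the highest mutant, and they did not overlap. The log2 fold change was -0.66 (SE 0.12, adjusted p = 0.000962, edgeR), a level lower by 36.6%. Pdss2 (chr10:43221486-43464882, plus strand), the partner subunit without which the enzyme does not work, was at 16.2, 16.2, 16.5 and 15.8 CPM in controls, which hardly differed, and at 11.2, 10.9, 12.7 and 12.4 CPM in Dnm2 +/K562E mice. Its log2 fold change was -0.45 (SE 0.08, adjusted p = 0.000938, edgeR), or 26.9%. The difference between the subunits did not pass the test: the log2 ratio of Pdss1 to Pdss2 went from -0.35 ± 0.20 to -0.55 ± 0.06 (n = 4 each, exact two-sided permutation p = 0.143). Control 3, at -0.65, was the only control that did not lie above all mutants (-0.61 to -0.48). Without control 3 the difference was -0.30 (exact two-sided permutation p = 0.0571, the smallest then possible). Of the exon length of Pdss1, 4.57% lies over the gene Abi1 on the other strand, and whether reads were counted by strand is not given.

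Coq2 (chr5:100654723-100675140, minus strand), the membrane enzyme that joins the tail to the ring, had the smallest difference of the 10. It was at 47.9, 53.3, 53.7 and 49.4 CPM in controls and 37.6, 39.8, 40.1 and 41.2 CPM in Dnm2 +/K562E mice, with a gap between the groups wider than the range within either. The log2 fold change was -0.36 (SE 0.06, adjusted p = 0.000853, edgeR), a level lower by 22.3%. Of its transcript, 13.5% of the 31-base stretches also occur in transcripts of other genes, among them Gm6728. Part of the Coq2 reads may therefore have been lost or counted elsewhere.

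The methyltransferases add methyl groups to the ring, Coq5 to a carbon and Coq3 to oxygens. Coq5 (chr5:115279666-115296972, plus strand) was at 89.5, 89.2, 88.3 and 82.5 CPM in controls and 53.5, 57.4, 60.2 and 63.9 CPM in Dnm2 +/K562E mice. Controls 1 to 3 lay close together and control 4 below them, yet far above every Dnm2 +/K562E mouse. Coq5 was lower by 32.7% (log2 fold change -0.57, SE 0.07, adjusted p = 6.45e-05, edgeR). Coq3 (chr4:21879673-21912162, plus strand) was at 46.8, 38.5, 39 and 33.7 CPM in controls, the widest relative spread among the 10 genes in controls (coefficient of variation 13.7%), and at 31, 29.4, 30.9 and 29.3 CPM in Dnm2 +/K562E mice. Control 4 came close to the mutants without reaching them. Its log2 fold change of -0.39 (SE 0.09, adjusted p = 0.00566, edgeR) had the largest adjusted p of the group, and with library size alone it was -0.17 and no longer passed the test (adjusted p = 0.125).

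The hydroxylases place the oxygens of the ring. Coq6 (chr12:84361657-84373796, plus strand), a flavin-dependent enzyme, was at 23.6, 24, 23.2 and 21.2 CPM in controls and 16.5, 16.3, 18.6 and 17.7 CPM in Dnm2 +/K562E mice, and was lower by 24.9% (log2 fold change -0.41, SE 0.07, adjusted p = 0.00119, edgeR). Coq7 (chr7:118509659-118533356, minus strand), a di-iron enzyme that acts late in the route, was at 73.9, 76.6, 66.7 and 65.7 CPM in controls and 40.7, 46.9, 48.7 and 46.7 CPM in Dnm2 +/K562E mice. Its lowest value was in Dnm2 +/K562E mouse 1, well apart from every control. The log2 fold change of Coq7 was -0.63 (SE 0.08, adjusted p = 9.05e-05, edgeR), a level lower by 35.3%.

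Coq9 (chr8:94838321-94854895, plus strand), a lipid-binding protein that presents substrate to Coq7, showed the largest difference. It was at 403, 439, 448 and 403 CPM in controls and at 214, 234, 252 and 242 CPM in Dnm2 +/K562E mice, so that the highest mutant was far below the lowest control. The log2 fold change was -0.85 (SE 0.07, adjusted p = 5.08e-06, edgeR), a level lower by 44.4%. Coq7 and Coq9, whose proteins work together, thus differed unequally: the log2 ratio of Coq7 to Coq9 within a mouse, which does not depend on the scaling, was -2.45, -2.52, -2.75 and -2.62 in controls and -2.40, -2.32, -2.37 and -2.38 in Dnm2 +/K562E mice. The groups did not overlap, and the mean rose by 0.22 (exact two-sided permutation p = 0.0286, the smallest p that 4 against 4 mice can give, and 0.0571 after adjustment over 4 ratios compared), which misses the threshold once adjusted.

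Coq4 (chr2:29787493-29797935, plus strand), needed for the assembly of the COQ proteins and for the oxidative decarboxylation of the ring, was at 9.18, 9.92, 8.98 and 8.83 CPM in controls and 6.79, 5.65, 6.32 and 7.27 CPM in Dnm2 +/K562E mice. It was lower in all 4 mutants, by 29.5% (log2 fold change -0.50, SE 0.11, adjusted p = 0.00301, edgeR). This value is uncertain, since 27.1% of its exon length lies over Trub2 on the other strand and the strand setting of the counting is not given.

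Coq8a (chr1:180165238-180199602, minus strand), an ATPase of the kinase-like UbiB family that the COQ assembly needs, was by far the most abundant. It was at 1766, 1899, 1779 and 1507 CPM in controls and 1207, 1254, 1234 and 1241 CPM in Dnm2 +/K562E mice. The mutants lay within a narrow band (coefficient of variation 1.59%, against 9.51% in controls), below control 4, the lowest control. Coq8a was lower by 29% (log2 fold change -0.49, SE 0.07, adjusted p = 0.000354, edgeR). Its share of the summed CPM of the 10 genes was 70.3% in controls and 73.1% in Dnm2 +/K562E muscles, without a test. Of its exon length, 6.91% lies over Cdc42bpa on the other strand.

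Between genes, levels can be compared only per length of exon. The length used joins all annotated exons of a gene, including any not used in this muscle, so the order depends on it. In controls Coq8a led with 328 ± 31.2 CPM per kilobase (SD, n = 4), followed by Coq9 (139 ± 7.79), Coq5 (28.8 ± 1.09), Coq2 (19.5 ± 1.09), Coq3 (13.2 ± 1.81), Coq7 (11 ± 0.832) and Coq6 (7.32 ± 0.399). Pdss1 (3 ± 0.37), Coq4 (2.71 ± 0.142) and Pdss2 (2.71 ± 0.0477) were the lowest and overlapped from each to the next, as did Coq3 and Coq7. The enzymes that make the tail thus had transcript levels near the bottom of the order, and the highest gene stood 121 times above the lowest. In Dnm2 +/K562E muscles the order was the same down to Coq6 and the ratio was 123. There Coq8a was at 233 ± 3.72, Coq9 at 77.1 ± 5.24, and the lowest were Pdss2 (1.98 ± 0.148), Coq4 (1.91 ± 0.203) and Pdss1 (1.9 ± 0.187) CPM per kilobase, overlapping one another, while Coq3 (10.1 ± 0.302) and Coq7 (7.11 ± 0.543) no longer overlapped.

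**Figure D3:**
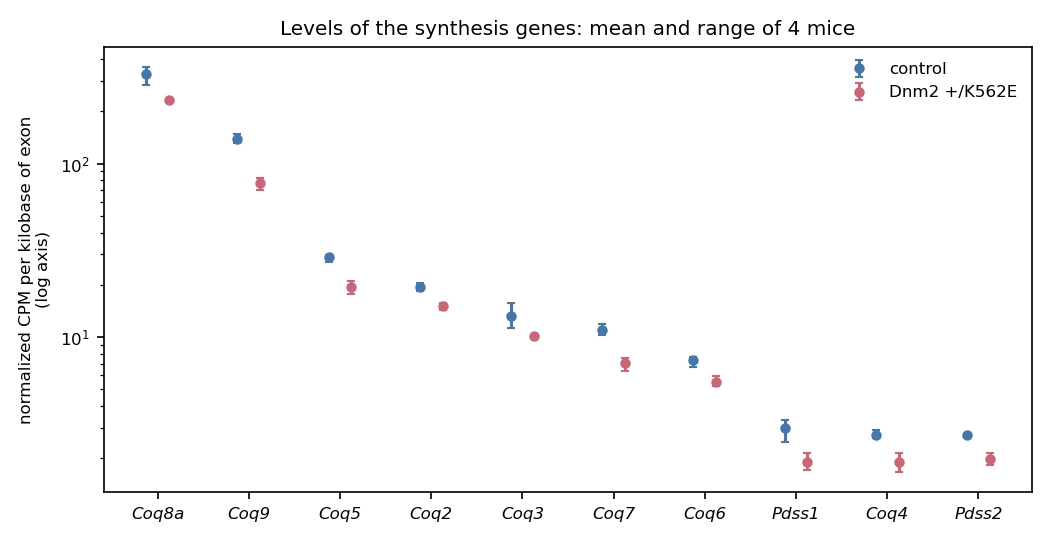
Level of each synthesis gene in normalized CPM per kilobase of exon (log axis), as mean and range of 4 mice, for controls and Dnm2 +/K562E mice, ordered by the control level. Levels run from 328 for Coq8a to about 2.71 for Coq4 and Pdss2 in controls; the lower mutant levels hold on the TMM scale and turn upward for 7 genes when scaled to muscle markers.

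Within a genotype the genes moved partly together. Control 4 was the lowest control for 8 of the 10 genes, with a mean log2 deviation of -0.09 from the control mean, and control 2 was the highest for 4 of them. The scaling factor of a mouse shifts all its genes alike. Control 4 had a TMM factor of 0.9594, against 0.9145 to 0.9228 in the other controls. Control 4 also had the highest sums of macrophage markers (135 CPM) and fibroblast markers (3774 CPM) among the controls. The same held for its sums of adipocyte (471 CPM), fast fibre (31141 CPM) and Schwann cell markers (279 CPM), but not of muscle or endothelial markers. The fast fibre markers were uneven in control 4. Myh4 was at 3134 CPM, against 163 to 426 CPM in the other controls, and Pvalb at 946, against 342 to 469 CPM. Atp2a1 was also the highest there, Myh1 and Tnni2 were the lowest of the controls, and Tnnt3 and Mylpf lay between. Among the mutants, mouse 1 was the lowest for 5 genes and mouse 2 for 4. Mouse 1 had the highest mutant sums of macrophage (296 CPM), fibroblast (6948 CPM), adipocyte (264 CPM) and Schwann cell markers (285 CPM). Its sums of fast fibre (17210 CPM), muscle (43228 CPM) and endothelial markers (616 CPM) were the lowest. These are descriptions of 8 libraries, and the part of the other cells or of the scaling factors in them was not tested. Leaving out control 4 moved the median of the 10 genes to -0.55, and all 10 genes were called whichever mouse was left out.

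Of 9 accessory genes, which act on the COQ proteins, on coenzyme Q itself or on its precursors, 4 were lower, 1 was higher and 4 passed the test in neither direction (median log2 fold change -0.55). On the muscle marker scale 2 were lower and 4 higher, with a median of 0.04. Pptc7, a mitochondrial phosphatase whose yeast counterpart acts on Coq7, was lower at 184 ± 29.2 against 90.6 ± 6.76 CPM (log2 fold change -1.03, adjusted p = 3.09e-05, edgeR), although 21.2% of its exon length lies over Rad9b on the other strand. Coq10a, a lipid-binding chaperone of coenzyme Q, was lower at 391, 414, 398 and 374 CPM in controls against 200, 204, 227 and 234 CPM in mutants (log2 fold change -0.86, adjusted p = 4.41e-06, edgeR). Pptc7 and Coq10a both stayed lower on the muscle scale, at -0.44 and -0.28. Stard7, a lipid transfer protein of mitochondria, and the ferredoxin Fdx1 were lower at -0.68 and -0.56 with adjusted p of 0.000124 and 0.000282 (edgeR). On the muscle scale Stard7 was at -0.10, no longer past the test, and Fdx1 turned to 0.02.

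Coq8b, the close paralog of Coq8a, moved in the opposite direction. It was at 5.72, 4.93, 6.36 and 5.86 CPM in controls and 11, 9.23, 10.3 and 11.3 CPM in Dnm2 +/K562E mice, with no overlap, and was higher under each scaling (log2 fold change 0.87, SE 0.11, adjusted p = 0.000131, edgeR; 1.46 on the muscle scale). The log2 ratio of Coq8a to Coq8b was 8.27, 8.59, 8.13 and 8.01 in controls and 6.77, 7.09, 6.90 and 6.78 in mutants. Its mean fell by 1.36 (exact two-sided permutation p = 0.0286, 0.0571 adjusted over the 4 ratios), and every mutant lay below every control. As these ratios are not per length, only their difference between genotypes is read.

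The paralog pair Coq10a and Coq10b parted less clearly. Coq10b was at 34.7, 14.2, 11.8 and 10.8 CPM in controls, where control 1 stood apart from the other 3, and at 24.9, 15.6, 23.7 and 27.9 CPM in mutants, so the groups overlapped (log2 fold change 0.37, SE 0.34, adjusted p = 0.405, edgeR). Without control 1 the value was 0.90 and on the muscle scale 0.94, and each passed the test as higher (adjusted p = 0.00174 and 0.0209, edgeR). The log2 ratio of Coq10a to Coq10b differed by -1.37 (exact two-sided permutation p = 0.0571, 0.0762 adjusted over the 4 ratios). Hpdl, an enzyme in the supply of the ring, was at 4.13 ± 1.15 and 2.82 ± 0.388 CPM and lay at the edge of the test (log2 fold change -0.55, adjusted p = 0.0538, edgeR). It passed the test as lower with edgeR's exact test (adjusted p = 0.0353), with DESeq2 (0.03), without mitochondrially encoded genes (0.0495) and without control 4 (log2 fold change -0.71, adjusted p = 0.0116), and was at 0.04 on the muscle scale. The ferredoxin reductase Fdxr was at 6.32 ± 1.8 and 6.08 ± 0.814 CPM and the ferredoxin Fdx2, whose exons overlap those of other gene models, at 22.3 to 25.2 CPM in controls and 24.1 to 28.1 CPM in mutants, neither past the test. Fdx2 (log2 fold change 0.12) passed it as higher with library size alone (0.33, adjusted p = 0.00167, edgeR) and on the muscle scale (0.70, adjusted p = 4.28e-05), and Fdxr as higher on the muscle scale (0.52).

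**Figure D4:**
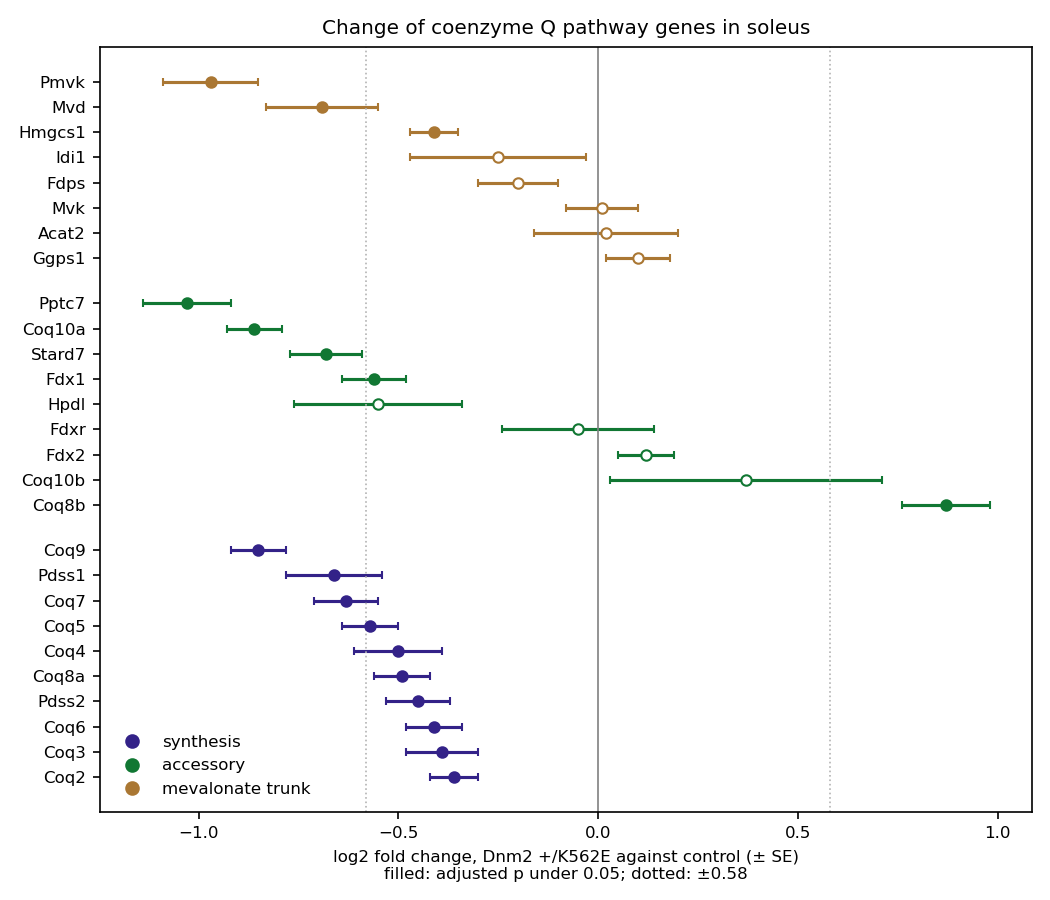
Log2 fold change ± SE (Dnm2 +/K562E against control, TMM scale) of the 10 synthesis genes, 9 accessory genes and 8 genes of the mevalonate trunk, filled where the adjusted p is under 0.05, with dotted lines at ±0.58. All 10 synthesis genes lie left of 0, Coq8b alone of the filled points lies right of 0, and 3 genes of the trunk are filled; with muscle marker scaling 7 synthesis genes, Fdx1, Hpdl, Fdxr, Hmgcs1, Idi1 and Fdps move to the right of 0.

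The mevalonate trunk, which supplies the isoprenoid units of the tail, did not move as a whole. Of 8 of its genes 3 were lower and none was higher, with a median log2 fold change of -0.22, which became -0.01 with library size alone and 0.36 on the muscle scale, where 1 was lower and 4 were higher. Without control 3 the median was -0.12, and without control 1 it was -0.31 with 4 genes lower, Fdps among them (adjusted p = 0.0462, edgeR). Pmvk, phosphomevalonate kinase, was at 10.2, 10.4, 10 and 10.3 CPM in controls and 5.68, 4.09, 5.92 and 5.16 CPM in mutants (log2 fold change -0.97, adjusted p = 0.000107, edgeR) and stayed lower on the muscle scale (-0.40). Its neighbour in the route Mvd, mevalonate diphosphate decarboxylase, was at 13.7 ± 2.69 and 8.53 ± 0.677 CPM (-0.69, adjusted p = 0.00229, edgeR), and Hmgcs1, the HMG-CoA synthase, at 43.4 ± 1.74 and 32.6 ± 1.64 CPM (-0.41, adjusted p = 0.000377, edgeR). On the muscle scale Mvd was at -0.11 and Hmgcs1 turned to 0.16, neither past the test. Acat2, Mvk, Idi1, Fdps and Ggps1 had log2 fold changes of 0.02, 0.01, -0.25, -0.20 and 0.10 that did not pass the test. On the muscle scale Fdps turned to 0.39, and Acat2, Mvk and Ggps1 were at 0.59, 0.59 and 0.68, each past the test as higher.

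Past the trunk, 2 of 6 branch genes were lower and 1 was higher (median 0.10), against 1 lower and 4 higher (median 0.66) on the muscle scale. Fdft1, squalene synthase at the entry to sterols, was at 48.8 ± 4.26 and 27.3 ± 2.87 CPM (log2 fold change -0.84, adjusted p = 4.02e-05, edgeR). Fntb, a subunit of protein farnesyltransferase, was lower at -0.28 (adjusted p = 0.0113) but at 0.31 on the muscle scale, and Dhdds, which makes the dolichol chain, was higher at 0.37 (adjusted p = 0.00314, edgeR). None of 4 genes of sterol regulation (Srebf2, Scap, Insig1 and Insig2) passed the test in edgeR or DESeq2, and 0 of 4 had an unadjusted p under 0.05. Their log2 fold changes ran from 0.02 to 0.12. On the muscle scale all 4 passed the test as higher, as did 10123 of all 14001 genes.

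The enzymes that pass electrons to coenzyme Q and the complex that takes them up were lower too on the TMM scale. Of 14 genes of dehydrogenases and reductases that use coenzyme Q, 13 were matched and all 13 were lower, with a median log2 fold change of -0.80, which was -0.22 on the muscle scale with 6 lower and 1 higher. The complex II subunits Sdha, Sdhb, Sdhc and Sdhd were lower by log2 fold changes of -0.99, -0.92, -0.80 and -0.77. The electron transfer flavoprotein subunits Etfa and Etfb and their dehydrogenase Etfdh were at -0.58, -1.04 and -0.68. Glycerol phosphate dehydrogenase Gpd2 was at -0.99, proline dehydrogenase Prodh at -0.95, and dihydroorotate dehydrogenase Dhodh at -0.57. The quinone reductases Nqo1 and Aifm2, which work outside the respiratory chain, were at -1.48 and -0.63. Sqor, the sulfide oxidoreductase, had the smallest difference (-0.21, adjusted p = 0.0385, edgeR), which turned to 0.01 with library size alone and 0.37 on the muscle scale, and Dhodh was at 0.00 there. Sqor also missed the test with edgeR's exact test (adjusted p = 0.0571), without the filter (0.0533, edgeR) and with either replicate block (0.0823 and 0.0855, edgeR). The same held when control 2, 3 or 4 or Dnm2 +/K562E mouse 1, 3 or 4 was left out, so its call is not firm.

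By the same test all 9 nuclear genes listed for complex III were lower (median -0.68). So were all 37 genes with symbols of complex I (median -0.65), and 57 of 77 with symbols of the mitochondrial ribosome, with 1 higher (median -0.35). The complex I and ribosome lists were formed by symbol alone, such as Ndufa or Mrpl with a number. Whether each gene belongs to the complex was not checked. The median of the synthesis genes, -0.50, lay between those of complex I and of the mitochondrial ribosome. On the muscle scale these medians were -0.10, -0.07 and 0.23, against 0.08 for the synthesis genes. There 4 genes of complex III were lower and 0 higher, 7 of complex I lower and 1 higher, and 2 of the mitochondrial ribosome lower and 37 higher. Over all 14001 genes, 408 were lower and 10123 higher on that scale. The lists were not tested against each other.

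**Figure D5:**
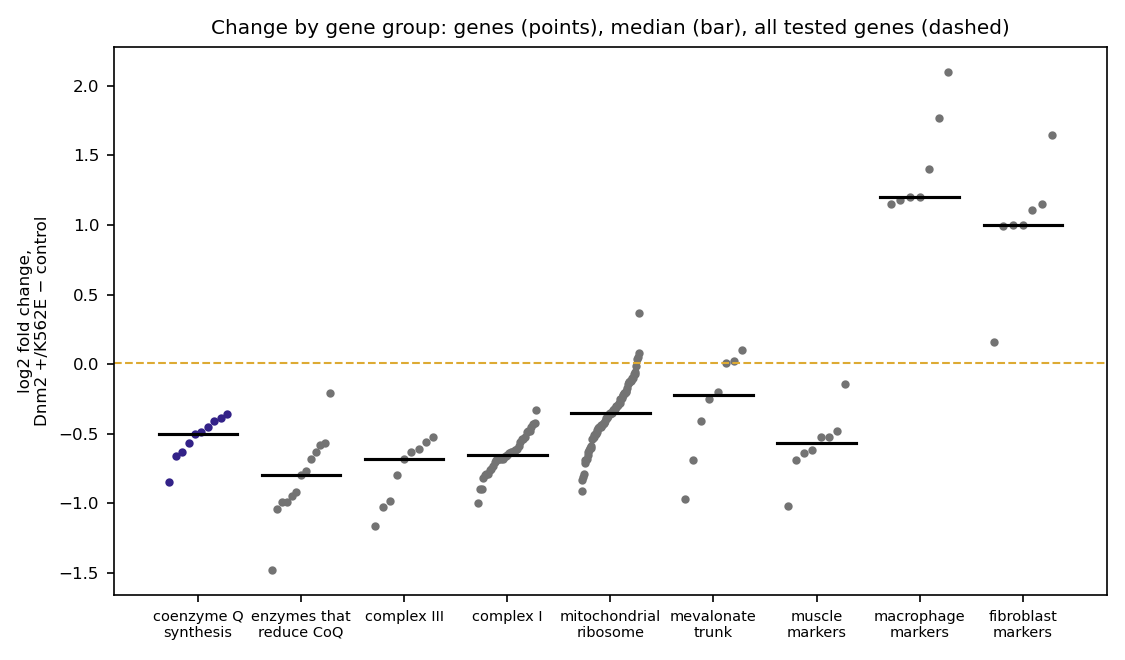
Log2 fold change (Dnm2 +/K562E against control, TMM scale) of each gene, by group, with the group's median (bar) and the median of all tested genes (dashed, 0.01). The synthesis genes (median -0.50) lie in the range of the muscle markers (-0.57) and of the mitochondrial ribosome (-0.35), while macrophage and fibroblast markers lie above 0; scaled to muscle markers the synthesis and ribosome medians turn to 0.08 and 0.23.

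Across the 8 mice, the genes whose log2 CPM profile, centred on its own mean, was nearest to that of each synthesis gene were found among all tested genes by root mean square distance. For Coq9 these were Mpc2 (0.0306), Ndufa6 (0.0359) and Ndufb8 (0.0363), and for Coq5 Dnaja3 (0.0184), Atp5f1 (0.038) and Phb2 (0.0386). For Coq7 they were Chchd10 (0.0497), Pla2g12a (0.0554) and Egln1 (0.0577), and for Coq8a Rhot2 (0.0469), Mmadhc (0.0487) and Svip (0.049). Coq2 was nearest to Ankrd40 (0.0249), Alkbh5 (0.0292) and Ppp1r12b (0.032), and Coq6 to Synpo (0.0364), Naa50 (0.0405) and Dap3 (0.0422). Coq3 had Zfp672 (0.0522), Mfsd3 (0.0526) and Fabp3 (0.0586), and Coq4 had D5Ertd579e (0.0495), Mmachc (0.0522) and Pnpt1 (0.0549). Pdss2 was nearest to Tie1 (0.0343), Ubxn2a (0.0364) and Fkbp3 (0.0426), and Pdss1, the farthest from any other gene, to Cacna1h (0.0593), Tmem80 (0.0863) and Sugp2 (0.0986). These distances describe 8 libraries that differ mainly by genotype, and many genes share such a profile.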

How the data were processed

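RNA from the soleus of 4 control and 4 Dnm2 +/K562E mice was sequenced. The authors trimmed reads with Trimmomatic 0.33, aligned them with STAR 2.5.1b to GRCm38.p5 and counted them per Ensembl gene with featureCounts; they deposited raw counts per mouse. Reads under a cutoff on mapping quality were left out by the authors. A remaining read over several genes counted once for every one of them, and multi-mapping reads that passed counted at the primary alignment. The labels name a stranded total RNA kit and the paper a poly A kit, and the strand setting is not given in the sources used here, so genes overlapping on opposite strands are uncertain. Totals were between 33407430 and 48832814 counts per mouse.

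Of 22880 gene IDs, 22570 received a symbol from GENCODE M21. After filterByExpr (minimum count 10, minimum total 15), 14001 genes were fitted in edgeR 4.0.16 (R 4.3.3) with TMM factors and the quasi-likelihood F-test, with Benjamini-Hochberg adjustment over all of them. Controls had TMM factors of 0.9145 to 0.9594 and mutants of 1.037 to 1.103. The thresholds were an adjusted p of 0.05 and, where stated, a log2 fold change of 0.58. Log2 ratios of the raw counts of 2 genes within a mouse were compared by exact two-sided permutation tests (scipy 1.17.1). The log2 CPM of the profiles and of the deviations of each mouse used a prior count of 2. The SE is that implied by the F statistic. On simulated data with a log2 difference of 1 given to 200 of 13871 genes, 90% were called, and 9 of 189 calls were false. In the real data 21.7% of genes were called lower and 22.2% higher, and every synthesis gene differed by less than 1. The simulation thus does not give the power or the false calls for the synthesis genes.

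The members and gene lists were chosen with earlier results of these data known, and some genes of these lists are not reported here. All 10 members, the genes of the accessory and mevalonate trunk lists, genes of other pathway lists that passed the test and the 3 nearest profiles of each member were to be named. The sterol genes, the muscle markers and the fast fibre markers were named after their values were seen. Other marker, complex III, complex I and ribosome genes are given by counts. Alternatives were DESeq2 1.42.0, edgeR's exact test, other scalings and filters, replicate blocks and leaving out each mouse. Scaling to muscle markers was added after the data were seen. Animals were separate, as the labels number them, and no libraries agreed within sampling noise.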

Additional observations from a re-analysis of the deposited data

Results flagged for a closer look

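Within the 4 mice of each genotype, 28 groups of values were examined for a mouse that stood apart from the others by Dixon's test at the 95% level, of which chance gives about 1 in 20, and 2 did. Coq5 in control 4 was at 82.5 normalized CPM, with a gap to the nearest control of 0.831 of the group's range. Without control 4 the log2 fold change of Coq5 was -0.61 in place of -0.57. The log2 ratio of Coq10a to Coq10b in control 1 was 3.49, with a gap of 0.851 of the range. Without control 1 the difference of this ratio between genotypes was -1.76 in place of -1.37.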

How the results depend on the processing

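With the exact test of edgeR, DESeq2, median-ratio factors, no mitochondrially encoded genes, no filter, or at least 10 counts in every mouse, all 10 synthesis genes were lower by the test. Library size alone left 9 of them called, with 1 in place of 3 past both thresholds and a median of -0.29; Sqor turned to 0.01. Scaling to muscle markers left 1 gene lower by the test and 1 higher, with 0 lower past both thresholds and a median of 0.08. On that scale 408 of all 14001 genes were lower and 10123 higher. The signs turned there for Hpdl (0.04) and Idi1 (0.34), which passed the test under neither scaling, and for Coq2 0.22, Coq3 0.19, Coq4 0.08, Coq5 0.01, Coq6 0.17, Coq8a 0.09, Pdss2 0.13, Fdx1 0.02, Fdxr 0.52, Hmgcs1 0.16, Fdps 0.39, Fntb 0.31, Dhodh 0.00 and Sqor 0.37, and the medians of the accessory genes (0.04), the mevalonate trunk (0.36) and the mitochondrial ribosome (0.23). The changed reference, whose genes were lower by a median of 0.57 on the log2 scale, is built into that scaling. Leaving out each mouse kept 10 of 10 called, with 2 (without Dnm2 +/K562E 1) to 4 (without control 4) past both thresholds and a median of -0.55 to -0.46. The log2 ratios ranged from -0.30 to -0.15 for Pdss1 to Pdss2, -1.44 to -1.25 for Coq8a to Coq8b, 0.16 to 0.26 for Coq7 to Coq9 and -1.76 to -1.22 for Coq10a to Coq10b, where no p could fall below 0.0571. The median of the mevalonate trunk ran from -0.31 (without control 1) to -0.12 (without control 3), of the branches from -0.01 (without control 3) to 0.15, and of the adipocyte markers from -0.60 to 0.10 (without control 4). The numbers given to mice in titles and descriptions mark no shared animal, and same-numbered mice did not deviate together (mean correlations of -0.114 and -0.0302). With either number as a replicate block all 10 genes were called, with a median of -0.50 and largest adjusted p of 0.0179 and 0.0105 (edgeR).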
